A study of Caenorhabditis elegans with 8 samples.

Results

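The fbxb genes of Caenorhabditis elegans encode F-box proteins, and 34 of the 17076 genes in the deposited table belong to this family. They are every row whose WBGene ID carries a symbol made of fbxb- and digits. The annotation of genome build WBcel235 holds 70 further genes with such a symbol, which were not analysed here. The table lists only genes with at least 1 read in each of the 2 age groups, so a family member without reads at 1 of the ages could not enter. The family was chosen by its symbol, but it was proposed with its difference between the 2 ages already known. Its levels and its counts in this comparison are therefore given as a description, with no test of the family, and nothing is read from them about the family as a class.

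The worms were wild-type N2 hermaphrodites, the standard laboratory strain, taken whole and labelled adult day 5 or adult day 1, with 4 libraries of each age. Day 5 worms had spent 180 h in culture after synchronization as L1 larvae and day 1 worms 60 h, both on OP50 bacteria at 20 °C, with no treatment or mutation in either group. Each age had 1 library in each of 4 labelled batches. Poly(A)-selected RNA was sequenced to between 20569012 and 22305681 gene-assigned reads per library at day 5 and between 19345868 and 20763236 at day 1. The labels do not say whether the libraries came from separate cultures, so the spread between them may be technical.

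F-box proteins are the exchangeable part of SCF ubiquitin ligases. Through the F-box they dock on an adaptor of the SKP1 family, which joins them to a cullin and a RING protein, and through the rest of the protein they hold the substrate that the ligase marks with ubiquitin. In nematodes both the F-box genes and the SKP1-related adaptors (skr genes) have multiplied into large families, and for most fbxb proteins no substrate is known. No role is therefore given below for single members.

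At day 5 nearly all of the listed fbxb genes stood at low to moderate levels, and at day 1 most were close to the detection limit. A level is the deposited value, a read count divided by 1 size factor per library, so that 1 read is worth about 1 unit. Over the 34 genes the median of the mean levels was 40.8 at day 5 and 1.89 at day 1. The family as a whole collected 9323 reads over the 4 day 5 libraries and 463 over the 4 day 1 libraries. Its summed level was 1824, 2383, 2495 and 2318 in day 5 batches 1 to 4, against 98.2, 111, 138 and 117 in day 1 batches 1 to 4. The sums of the ages lay far apart, with a ratio of 19.4 between their means, while the highest sum was 1.37 times the lowest among day 5 libraries and 1.40 times among day 1 libraries.

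Because the RNA came from whole worms, more cells that carry an RNA and more RNA per cell cannot be told apart. Every family member had a mean value of at least 1 and was tested along with the rest of the table. Of the 34 genes, 33 had a higher and 1 had a lower mean log2(value + 1) at day 5. In the limma fit over all 16739 genes tested, 31 fbxb genes were called higher at day 5 at an adjusted p under 0.05, 0 were called lower and 3 were not called. Over all genes tested, 28.8% were called higher and 26.8% lower. In the same 31 genes all 4 day 5 values lay above all 4 day 1 values, which held for 27.6% of all genes tested. The median log2 difference, day 5 minus day 1, was 4.11 over the family, with quartiles of 3.07 and 4.64, and -0.06 over all genes tested. It was 3.08, 4.38, 3.93 and 4.02 within batches 1 to 4. In every batch 32 of the 34 genes were higher at day 5. For the 31 genes without overlap this holds by construction, and the share over all genes was not computed.

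**Figure D1:**
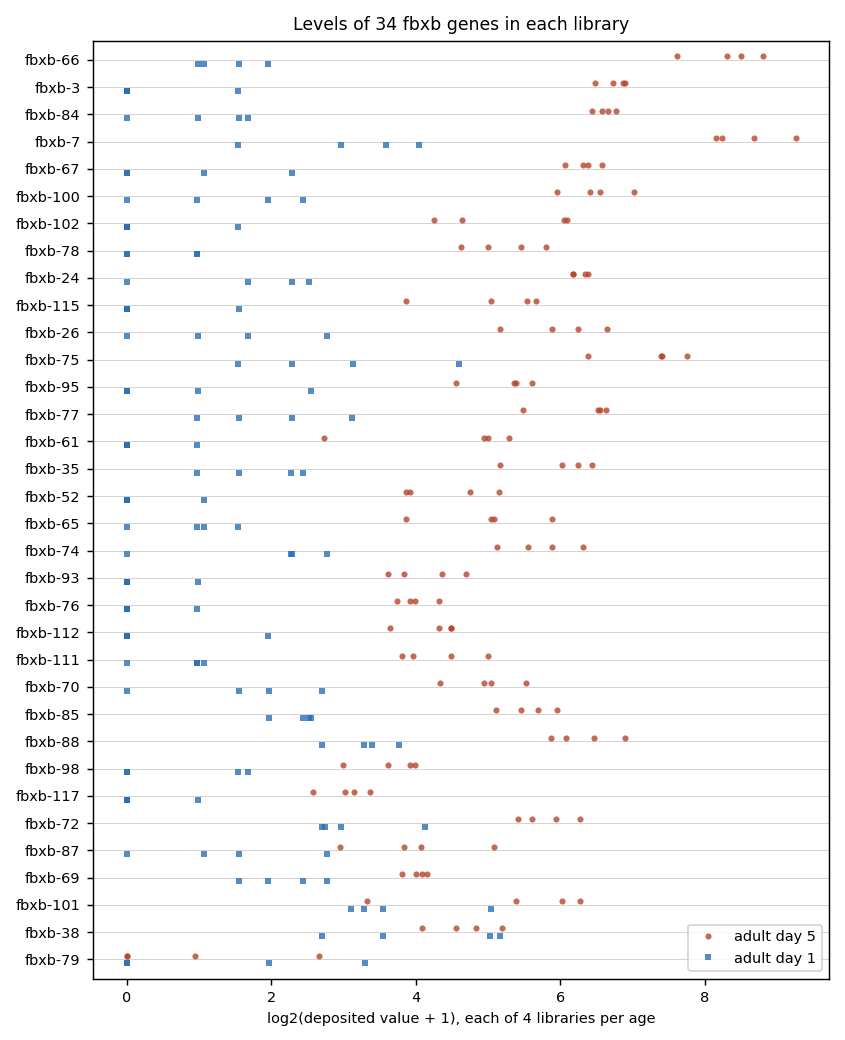
Each row is 1 of the 34 fbxb genes, ordered from the largest to the smallest difference, and the x axis gives log2(value + 1) in each library, with circles for the 4 day 5 libraries and squares for the 4 day 1 libraries. In 31 rows the circles all lie to the right of the squares, and the 3 rows at the bottom, fbxb-101, fbxb-38 and fbxb-79, overlap.

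The largest differences on the log2(value + 1) scale belonged to fbxb-66 and fbxb-3. fbxb-66 (WBGene00044066; WBcel235 chromosome I, 13423997 to 13425148, minus strand) was at 195, 361, 446 and 316 in day 5 batches 1 to 4, against 2.86, 0.973, 1.10 and 1.94 in day 1 batches 1 to 4. Its lowest day 5 value, in batch 1, was still far above every day 1 value, and the log2 difference was 6.92 (SE 0.41). fbxb-3 (WBGene00009546; IV, 11838957 to 11840426, plus strand) was at 87.8, 117, 116 and 105 at day 5, against 1.91, 0, 0 and 0 at day 1. It had 440 reads in all at day 5 and 2 at day 1, both in batch 1. The ratio of its reads, scaled by the size factors, was 216, with an exact 95% interval of 59.4 to 1788 that covers counting error only.

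The most abundant member was fbxb-7, and it differed from most of the family in where its values were highest. fbxb-7 (WBGene00012492; V, 17377406 to 17379233, plus strand) was at 611, 299, 283 and 407 in day 5 batches 1 to 4, against 1.91, 6.81, 11.01 and 15.5 in day 1 batches 1 to 4. Its log2 difference was 5.54 (SE 0.54), and within batches it was widest in batch 1, where the day 5 value was the highest and the day 1 value the lowest of their age. fbxb-66 was lowest in that same day 5 library. Between them, fbxb-7, fbxb-66 and fbxb-75 took 39.0% of the family's day 5 reads.

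A group of members had even values across the day 5 libraries. fbxb-84 (WBGene00020544; III, 145482 to 146469) averaged 96.7 ± 9.30 at day 5 and 1.28 ± 1.00 at day 1 (SD, n = 4 each), a log2 difference of 5.55 (SE 0.46). fbxb-67 (WBGene00009862; I, 14297287 to 14298325) averaged 80.3 ± 11.8 at day 5 and 1.25 ± 1.84 at day 1, at 5.49 (SE 0.56). fbxb-24 (WBGene00013234; III, 11908960 to 11909948) was at 70.9, 82.0, 70.9 and 79.7 in day 5 batches 1 to 4, against 4.77, 3.89, 2.20 and 0 in day 1 batches 1 to 4. The coefficient of variation at day 5 was 9.63% for fbxb-84, 14.7% for fbxb-67 and 7.67% for fbxb-24, against a family median of 33.1%. It was also below that median for other members, such as fbxb-69 at 10.7% and fbxb-3 at 12.9%. Of the 946 exonic bases of fbxb-24, 76 are shared with faah-4 on the opposite strand, and no strand marking is stated for the libraries, so reads of the pair cannot be told apart there.

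Other well-expressed members varied more between day 5 libraries. fbxb-100 (WBGene00013403; I, 14090730 to 14096348) was at 60.8, 83.8, 128 and 92.6 at day 5, against 2.86, 0, 4.40 and 0.969 at day 1, a log2 difference of 5.14 (SE 0.57). fbxb-75 (WBGene00019956; IV, 4439824 to 4441177) was at 82.1, 169, 214 and 167 at day 5, against 1.91, 7.78, 23.1 and 3.88 at day 1, at 4.34 (SE 0.64). fbxb-77 (WBGene00021204; IV, 4754199 to 4756157) was at 43.9, 97.8, 92.1 and 90.6 at day 5, against 0.953, 1.95, 7.71 and 3.88 at day 1, at 4.31 (SE 0.54). All 3 had their lowest day 5 value in batch 1 and their highest day 1 value in batch 3.

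fbxb-102 and fbxb-78 were among the 8 largest log2 differences although their day 1 values rested on 2 reads each. fbxb-102 (WBGene00008847; II, 12482922 to 12484286) was at 18.004, 65.2, 67.3 and 23.9 at day 5, against 1.91, 0, 0 and 0 at day 1, and its ratio of reads was 91.2 (exact 95% interval 24.9 to 759). fbxb-78 (WBGene00017116; IV, 4737558 to 4738862) was at 23.6, 42.9, 54.9 and 30.9 at day 5, against 0.953, 0, 0 and 0.969 at day 1, with a ratio of 78.5 (21.4 to 654). In both genes batches 2 and 3 gave the higher day 5 values.

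For much of the family the day 1 level could only be bounded loosely. Between 1 and 3 reads in all day 1 libraries together were found for 11 of the 34 genes, and under 10 reads for 20. In these 11 genes the ratio of reads between the ages was between 24.2 and 216, and the lower ends of the exact 95% intervals lay between 4.89 for fbxb-117 and 59.4 for fbxb-3. At least 1 day 1 library was at 0 in 23 genes, and at least 1 day 5 library in 1 gene, fbxb-79. Of the 14 genes with at least 10 reads at day 1, 11 were among the 31 called higher, and their median log2 difference was 3.29.

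Members with more day 1 signal included fbxb-88 and fbxb-72, 2 of the 4 smallest differences among genes with a mean of at least 10. fbxb-88 (WBGene00016359; II, 4826446 to 4827884) was at 57.4, 87.6, 118 and 66.7 at day 5, against 9.53, 8.75, 5.50 and 12.6 at day 1, a log2 difference of 3.04 (SE 0.40). fbxb-72 (WBGene00019243; V, 722646 to 723952) was at 41.6, 76.4, 60.2 and 47.8 at day 5, against 5.72, 6.81, 5.50 and 16.5 at day 1, at 2.67 (SE 0.44). Their groups did not overlap, but the gap for fbxb-72 was set by the day 1 library of batch 4.

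The 3 remaining genes overlapped between the ages. fbxb-101 (WBGene00013404; I, 14088087 to 14089858) was at 9.002, 40.99, 76.2 and 63.7 at day 5, against 7.63, 10.7, 31.9 and 8.72 at day 1, a log2 difference of 1.51 (SE 0.71). Its day 5 value in batch 1 stood among the day 1 values. Left out one at a time, the day 5 library of batch 1 or the day 1 library of batch 3 brought it past the threshold, at 2.15 and 1.94, as did the replicate block of labelled batches, which left its difference at 1.51, quantile normalization at 1.83 and DESeq2 at 1.70.

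fbxb-38 (WBGene00016337; II, 2167691 to 2168763) had the highest mean level of the family at day 1. It was at 22.5, 35.4, 27.5 and 15.9 at day 5, against 31.5, 35.02, 5.50 and 10.7 at day 1, and the log2 difference was 0.55 (SE 0.60). The day 1 values of batches 1 and 2 lay in the upper range of the day 5 values, and those of batches 3 and 4 lay below all of them. Set against day 1 batches 1 and 2 alone, the day 5 libraries differed by -0.43, and against day 1 batches 3 and 4 alone by 1.54, which was called.

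fbxb-79 (WBGene00011127; IV, 11188891 to 11189511) was the 1 gene with a lower mean at day 5. It was at 0, 0.932, 5.31 and 0 at day 5, against 0, 2.92, 8.81 and 0 at day 1, which came to 7 reads at day 5 and 11 at day 1. Batch 3 held the highest value at both ages, batches 1 and 4 held none at either, and the difference of -0.41 (SE 0.91) was 0.25 without the day 1 library of batch 3.

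**Figure D2:**
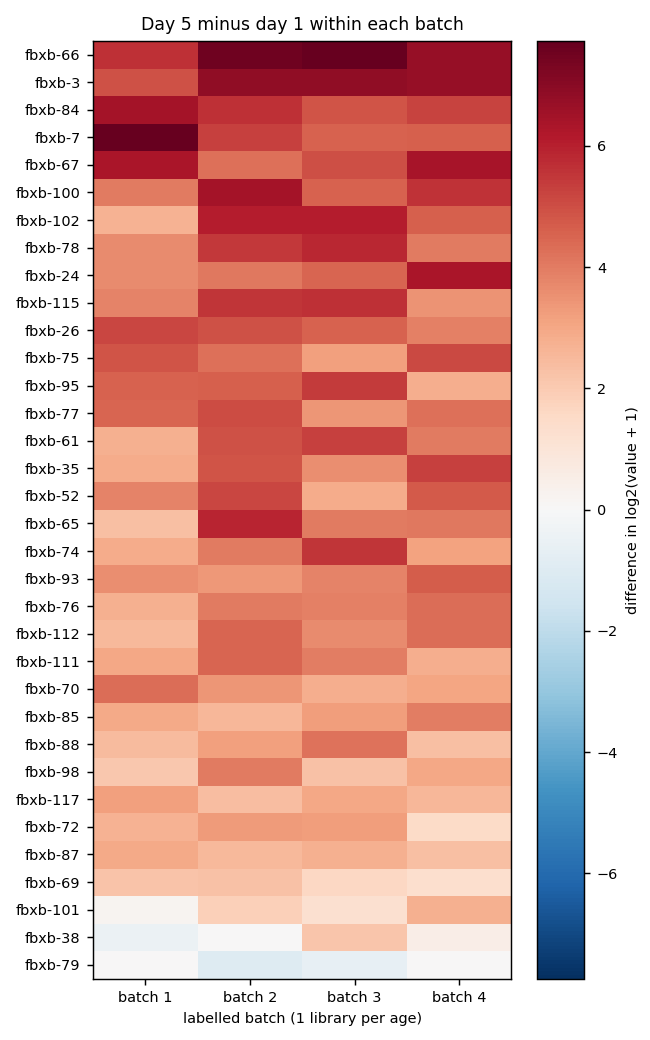
Rows are the 34 fbxb genes in the order of their overall difference, columns are the 4 labelled batches, and colour gives day 5 minus day 1 in log2(value + 1) between the 2 libraries of a batch. Nearly every cell is positive, 32 of the 34 rows are positive in all 4 columns, and the exceptions are the bottom 2 rows. In the 31 rows whose ages do not overlap this holds by construction.

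Many fbxb genes had their lowest day 5 value in the same library. In 23 of the 34 genes the lowest day 5 value was that of batch 1 alone, and in 2 of the 34, fbxb-7 and 1 other, fbxb-69, the highest was. The share over all genes was not computed, so this count is not read as a trait of the family. That library also had the fewest genes with a read, 16001, against 16409 to 16573 in the other day 5 libraries. The highest day 5 value lay in batch 2 for 14 genes, in batch 3 for 12 and in batch 4 for 6. At day 1 the lowest value lay in batches 1 to 4 alone for 8, 5, 4 and 3 genes. Reads of at least 1 were found for 33 or 34 members in each day 5 library and for 22 or 23 in each day 1 library.

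Marker genes of germ cells, oocytes and early embryos were, like the family, higher at day 5. All 20 oocyte markers were called higher at day 5 (28.8% of all genes tested), with a summed level of 305408 to 459562 at day 5 and 3875 to 10434 at day 1. Of 18 germline markers 15 were called higher and 0 lower, with sums of 83389 to 116554 at day 5. Their sums were 45195.7, 47617.6, 23952.7 and 26212.5 in day 1 batches 1 to 4. Of 16 early embryo markers 9 were listed and 8 tested, and all 8 were called higher, with sums of 1865 to 3167 at day 5 and 7.63 to 30.8 at day 1. Among day 1 libraries perm-2 and nos-2 of the oocyte list and 8 of the 9 embryo genes were at 0 in at least 1 library, end-1 and end-3, which specify endoderm, among them.

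Day 5 batch 1, lowest in the fbxb sum at 1824, was highest in the germline sum at 116554, the oocyte sum at 459562 and the embryo sum at 3167. It was highest as well in the intestinal sum at 1307420 and the neuronal sum at 12646. The same library was also lowest in the sperm sum at 1304, the muscle sum at 52305 and the hypodermal sum at 8948, which was 20730 to 25030 in the other day 5 libraries. Among the day 1 libraries the embryo sum was 7.63, 12.6, 30.8 and 19.4 in batches 1 to 4, the same order of libraries as the fbxb sum. The oocyte sum was 10434, 8194, 3875 and 4649 in those libraries, the opposite order. Muscle markers went the other way between the ages, with 10 of 10 called lower (26.8% of all genes tested). Most hypodermal markers did too, with 7 of 11 called lower and 2 higher. Muscle sums were 52305 to 97542 at day 5 and 172342 to 359928 at day 1. Hypodermal sums were 8948 to 25030 at day 5, and 83169.5, 76051, 146982 and 135183 in day 1 batches 1 to 4. Of 20 sperm markers 0 were called higher and 1 lower. Their sums were 1304 to 4751 at day 5, and 8661, 5335, 675 and 759 in day 1 batches 1 to 4. The day 1 sums of batches 1 and 2 thus lay above every day 5 sum, and those of batches 3 and 4 below every one. The few calls therefore do not show like sperm levels at the 2 ages. Of 12 intestinal markers 3 were called higher and 7 lower, with sums of 630150 to 1307420 at day 5 and 143970 to 225098 at day 1. The yolk genes vit-2, vit-5 and vit-6 were the 3 called higher and carried that sum at day 5, with means of 282332, 224534 and 326326 at day 5 and 413, 128 and 542 at day 1, while the median log2 difference of the list was -1.08. Of 13 neuronal markers 2 were called higher and 10 lower, with sums of 10480 to 12646 at day 5 and 11611 to 17206 at day 1. The part of a changed make-up of the worm in the fbxb values was not tested.

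**Figure D3:**
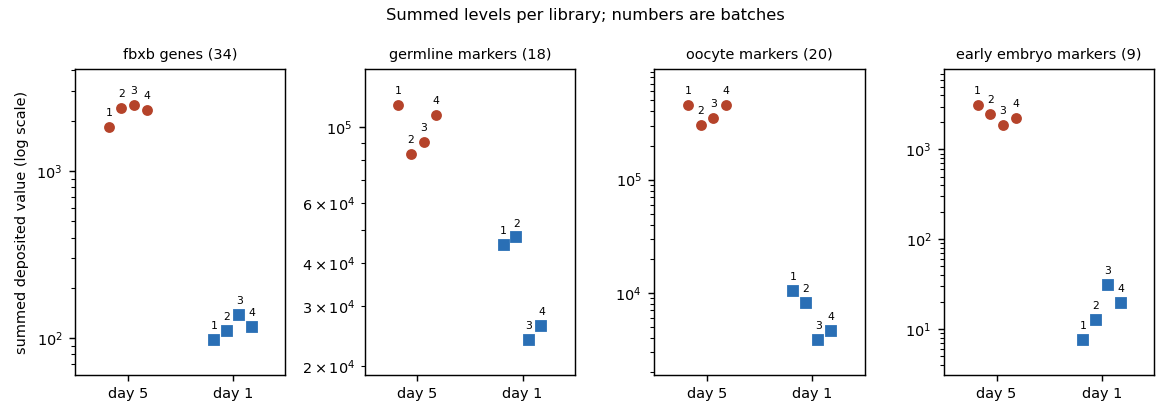
Each panel gives the summed deposited value of a gene list in every library on its own log axis, with day 5 libraries left and day 1 libraries right, and the numbers are the labelled batches. The fbxb sums run from 1824 to 2495 at day 5 and from 98.2 to 138 at day 1, and day 5 batch 1 is lowest in the fbxb panel and highest in the other 3.

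Set against gene length, the family was expressed below the typical gene. Mean levels per kilobase of exons had a median of 36.7 at day 5 and 1.66 at day 1 over the family, against 122 at day 5 and 148 at day 1 over all genes tested, and 3 of the 34 genes exceeded the all-gene median at day 5. These were fbxb-7 at 374 ± 141 per kilobase, fbxb-66 at 302 ± 96.0 and fbxb-75 at 134 ± 46.8 (SD, n = 4). Next came fbxb-84 at 103, fbxb-100 at 93.6, fbxb-3 at 82.4, fbxb-67 at 80.9 and fbxb-24 at 80.2 per kilobase at day 5. Down this order neighbours differed by less than the larger of their SDs, except between fbxb-66 and fbxb-75, below fbxb-98 and below fbxb-117. The lowest level was that of fbxb-79, at 2.51 per kilobase at day 5.

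The exon lengths and exon numbers of the listed genes, which the symbol did not use, were not compared with those of other genes. Their exons covered 540 to 1490 bases with a median of 1080 (1079.5), in 1 to 3 exons with a median of 2, and fbxb-79 was the gene with 1 exon. Exonic bases were shared with another annotated gene in 3 members, fbxb-24 as given above, and fbxb-3 and fbxb-74 with small RNA genes (21ur). fbxb genes are related copies, and how reads that map to several of them were handled is not given in the sources used here, so a single member's value is uncertain where copies are alike. Sequences were not analysed here.

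The family lies in runs on the chromosomes, and the listed members were spread unevenly over them. Of the annotated genes, 58 lie on chromosome II, of which 10 were listed. On chromosomes I, III, IV and V, 7 of 10, 4 of 8, 7 of 9 and 6 of 16 were listed, and on X none of 3 (0). With a gap of at most 20 kb, 76 of the annotated genes form 19 runs of 2 or more, the longest with 9 genes. In 11 of these runs listed and other members lie side by side, and 6 runs hold no listed gene. The listed genes had a median log2 difference of 3.88 on chromosome I, 3.95 on II, 3.91 on III, 4.31 on IV and 4.16 on V.

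**Figure D4:**
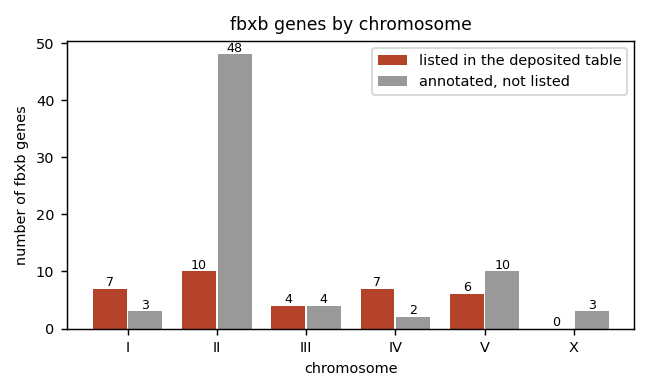
Bars give the number of fbxb genes per chromosome, with those listed in the deposited table left and those annotated in WBcel235 but outside the table right. Chromosome II holds 10 listed and 48 other genes, while chromosomes I and IV hold 7 listed genes each and 3 and 2 others.

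Some listed members close to each other differed and others were alike, in places with members outside the table between them. On chromosome I fbxb-101 lies between fbxb-93, 3879 bases away, and fbxb-100, 871 bases away, and the 3 had log2 differences of 1.51, 3.88 and 5.14. In the next run fbxb-69 and fbxb-67 lie 11961 bases apart, with the unlisted fbxb-68 between them. They had mean levels of 15.2 and 80.3 at day 5 and differences of 1.84 and 5.49. On chromosome IV fbxb-74 and fbxb-75 lie 533 bases apart on the same strand. Their day 5 means were 53.96 and 158, but their differences were near each other, at 3.88 (SE 0.63) and 4.34 (SE 0.64). Differences were also near each other for fbxb-78 and fbxb-77, at 4.73 and 4.31, and for fbxb-61 and fbxb-65, at 4.24 and 4.07. They lay further apart for fbxb-95 and fbxb-98, at 4.34 and 2.83, and for fbxb-117 and fbxb-61, at 2.78 and 4.24.

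The genes around the family held calls in both directions, with more of them higher at day 5 than lower. The nearest listed protein-coding genes outside the family on either side came to 58 distinct genes, of which 57 were tested, and 26 were called higher, 11 lower and 20 not called, with a median log2 difference of 1.12. Over all genes tested 28.8% were called higher and 26.8% lower, and the median was -0.06. Among these neighbours sdz-33, beside fbxb-24, was at a mean of 79.2 at day 5 and 1.04 at day 1, and sdz-10, beside fbxb-111, at 44.4 at day 5 and 0.243 at day 1. The other sdz neighbours, sdz-6 (37.4 at day 5 and 10.8 at day 1) and sdz-27 (1064 at day 5 and 82.3 at day 1), were also called higher. The sdz genes are named for a dependence on the embryonic transcription factor SKN-1, and they were singled out after their values were seen. fbxb-76 lies 544 bases from the eggshell gene cbd-1, whose mean was 49394 at day 5 and 891 at day 1, beside 15.1 at day 5 and 0.238 at day 1 for fbxb-76.

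The ligase components that F-box proteins work with were mostly higher at day 5, most of them modestly. Of 37 listed core, SKP1-related and cullin-regulating genes 32 were in the table, and limma called 25 higher (28.8% of all genes tested) and 1 lower (26.8%), with a median log2 difference of 1.21. The cullin cul-1 (WBGene00000836) was at 4677, 3951, 3383 and 3966 in day 5 batches 1 to 4, against 1999, 2303, 1223 and 1612 in day 1 batches 1 to 4, a difference of 1.19 (SE 0.22, limma adjusted p = 0.0012). The RING protein rbx-1 was at 1.36 (SE 0.19, limma adjusted p = 0.000245), and the adaptor skr-2 at 1.92 (SE 0.30, limma adjusted p = 0.000435). The main adaptor skr-1 averaged 4642 ± 551 at day 5 and 3582 ± 415 at day 1 and was not called (0.37, SE 0.16, limma adjusted p = 0.0782). skr-3, at -0.66 (SE 0.24, limma adjusted p = 0.0433), was the 1 lower gene, with values that overlapped between the ages, and its call was lost without any 1 of 6 single libraries, at adjusted p of 0.0541 to 0.112.

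A few SKP1-related adaptors showed differences larger than any fbxb gene, on the same scale. skr-15 (WBGene00004821) was at 567, 468, 314 and 478 at day 5, against 0, 0, 1.10 and 0 at day 1, a single read, and its ratio of reads was 1806 (exact 95% interval 324 to 71370). skr-9 (WBGene00004815) averaged 634 ± 73.0 at day 5 and 1.34 ± 2.09 at day 1, at 8.45 (SE 0.55, limma adjusted p = 3.21e-06). skr-12 (WBGene00004818) averaged 454 ± 39.2 at day 5, and its 4 day 1 reads all lay in batch 3. Its difference was 8.22 (SE 0.57, limma adjusted p = 4.84e-06), and 8.83 without that library. skr-9 and skr-12 belong to a group of closely related adaptors that lie together on chromosome IV, so the division of their reads is uncertain.

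**Figure D5:**
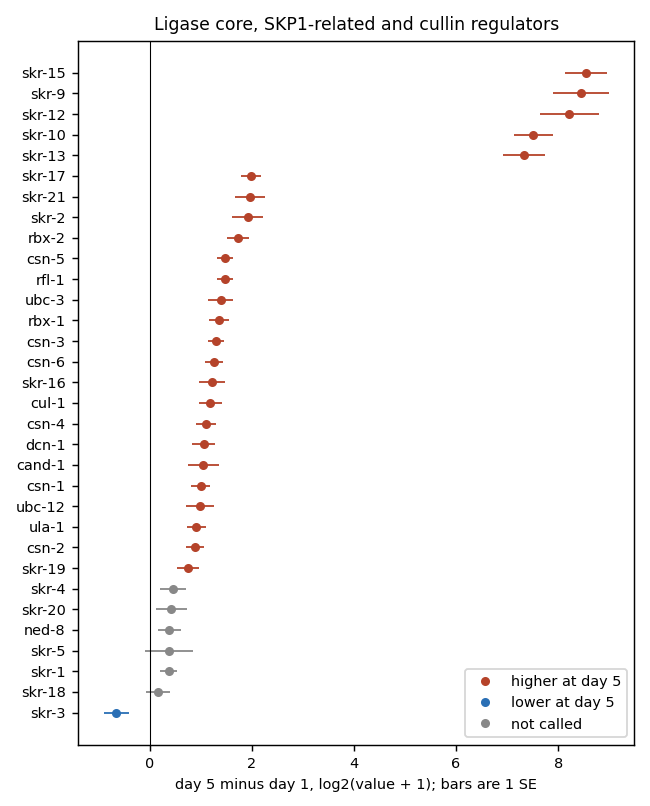
Points give the log2 difference, day 5 minus day 1, of the 32 listed ligase core, SKP1-related and cullin-regulating genes in the table, with bars of 1 SE and colours for the limma call at an adjusted p under 0.05. The 5 points above 7 are skr genes, cul-1 is at 1.19, and skr-3 at -0.66 is the 1 gene called lower.

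Better known F-box genes outside the numbered families were mostly higher too. Of 11 such genes limma called 9 higher and 1 lower, with a median of 2.13, where 28.8% of all genes tested were called higher and 26.8% lower. fsn-1, which acts at synapses, averaged 3544 ± 416 at day 5 and 465 ± 51.7 at day 1, at 2.93 (SE 0.16, limma adjusted p = 1.66e-06). skpt-1, the relative of SKP2, was at 2.63 (SE 0.24, limma adjusted p = 1.98e-05), and fog-2, which acts in the choice of germ cells for sperm, at 2.52 (SE 0.21, limma adjusted p = 1.33e-05). dre-1, which times larval development, averaged 782 ± 75.9 at day 5 and 2201 ± 669 at day 1, at -1.44 (SE 0.25, limma adjusted p = 0.000867).

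The 2 other numbered F-box families held genes in both directions. Of 178 fbxa and fbxc genes tested limma called 53 higher and 20 lower, and 105 were not called. Over all genes tested the shares were 28.8% higher and 26.8% lower. The pooled share called higher was near that of all genes, and the pooled share called lower was below it. The pooling hides a difference in counts. Of 148 fbxa genes 38 were called higher and 18 lower, and of 30 fbxc genes 15 were called higher and 2 lower. The families had a median log2 difference of 0.15 over 148 fbxa genes and 1.14 over 30 fbxc genes. The split of calls moved with the scaling, to 47 higher and 30 lower when the 1% of genes with the highest values was kept out of the scaling, and to 62 higher and 12 lower with quantile normalization. fbxa-170 was at 447, 296, 293 and 382 at day 5, against 0, 0.973, 0 and 0.969 at day 1, a ratio of reads of 701 (exact 95% interval 194 to 5797). fbxa-72 averaged 110 ± 51.5 at day 5 and 1314 ± 577 at day 1, at -3.62 (SE 0.45, limma adjusted p = 0.00012). fbxc-32 averaged 416 ± 110 at day 5 and 1.28 ± 1.00 at day 1 (7.61, SE 0.46, limma adjusted p = 2.25e-06), and fbxc-5 21.8 ± 3.49 at day 5 and 66.3 ± 18.8 at day 1 (-1.53, SE 0.34, limma adjusted p = 0.00342). Whether the fbxb family differs from them was not tested.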

How the data were processed

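HISAT2, HTSeq and build WBcel235 are named, per the submitters' processing notes, without versions or annotation. The deposited values are named FPKM but are a signal of another kind: in each library they are whole multiples of 1 step (100% within 0.001 reads; steps 0.886 to 1.13), that is, read counts that the authors scaled by 1 size factor a library, uncorrected for length. Symbols came from a table of gene names, and positions and exon lengths from annotation release 115 of WBcel235, 1-based.

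The 16739 genes whose mean reached 1 were fitted in R 4.3.3. The fit was limma 3.58.1 on log2(value + 1) with age as its only term, a variance trend and Benjamini-Hochberg adjustment. The scale understates differences of low genes. edgeR 4.0.16 and DESeq2 1.42.0 on recovered reads, other pseudocounts, filters and scalings, a replicate block and left-out libraries were alternatives. The fits were tested on simulated counts with known changes. The family, gene lists, tests and naming rule were chosen with earlier results of these data known. By that rule the fbxb genes named are the 10 with the highest mean and those opposite to most. To these it adds the 8 largest and 4 smallest differences among those with a mean of at least 10. Other fbxb genes are named only for position, exon overlap, the ends of a range or order, library counts or flags. Of the ligase and better known F-box lists, the rule takes the 3 largest called differences in each direction with groups that do not overlap. It adds cul-1, rbx-1, skr-1 and skr-2, and skr-3 is named outside it as the 1 ligase gene called lower. Of fbxa and fbxc the rule takes the largest in each direction.

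Replicate numbers are labelled batches, so the labels match 1 library of each age in every batch. Across genes, the deviations of the 2 libraries of a batch correlated at -0.22, 0.24, -0.09 and -0.02 in batches 1 to 4. No 2 libraries of an age agreed within sampling noise. At day 1 the libraries of batches 1 and 2 were nearer to each other than to those of batches 3 and 4. Promoter motifs and protein identity were not analysed here. Python 3.11.15 and scipy 1.17.1 gave exact (Clopper-Pearson) intervals.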

Additional observations from a re-analysis of the deposited data

Results flagged for a closer look

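Of 100 groups of 4 values, 17 had 1 library far from the other 3. The rule was set so that chance flags about 5% of groups. A group with reads in only 1 library is flagged by construction, so the 17 cannot be set against that rate. Most were day 1 groups in which 1 library held the only reads: fbxb-3 at 1.91, fbxb-102 at 1.91, fbxb-76 at 0.953 and fbxb-112 at 2.86 in batch 1, fbxb-93 and fbxb-117 at 0.973 in batch 2, fbxb-52 and skr-15 at 1.10 and skr-12 at 4.40 in batch 3, and fbxb-115 at 1.94 and fbxb-61 at 0.969 in batch 4. fbxb-111 was at 0 in day 1 batch 2 and at about 1 read in each other day 1 library. Those groups rest on 1 to 4 reads.

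The others had more reads. fbxb-77 was at 43.9 in day 5 batch 1, against 90.6 to 97.8 in the other day 5 libraries. At day 1 fbxb-72 was at 16.5 in batch 4 and fbxb-101 at 31.9 in batch 3, each above its other day 1 values. The adaptor skr-12 was at 512 in day 5 batch 2, and skr-1 at 2965 in day 1 batch 3, below its other day 1 values.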

How the results depend on the processing

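Under all other scalings, filters, pseudocounts, tests and left-out libraries between 26 and 32 fbxb genes were called higher and 0 lower; the 26 came from edgeR on the recovered reads, whose own filter kept 28 of the 34 and which called 4463 of all genes higher and 4569 lower. Restricted to the 14 members with at least 10 day 1 reads, a choice made after seeing the data, 11 were called. The median log2 difference of 4.11 moved to 5.55 and 2.59 with pseudocounts of 0.1 and 5, to 4.72 with DESeq2 and to 3.29 in those 14 members; by construction a smaller pseudocount widens differences of genes near 0. Scaling on genes outside the top 1% moved the median of all genes to -0.30 and that of the family to 3.92.

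Leaving out 1 library gave 31 to 32 fbxb genes higher and 0 lower, medians of 3.86 to 4.38, 25 to 28 ligase genes higher and 0 to 1 lower, 9 better known F-box genes higher and 1 lower, 47 to 57 fbxa and fbxc genes higher and 16 to 25 lower, and 4407 to 5024 of all genes higher and 3813 to 4488 lower. Against day 1 batches 1 and 2 alone, 0 ligase genes were lower, and against day 1 batches 3 and 4 alone, 31 fbxa and fbxc genes were; with quantile normalization 12 were. With the replicate block 32 fbxb genes were called higher (fbxb-101 among them) with a median of 4.11, beside 25 ligase genes higher and 1 lower. fbxb-38 turned to -0.43 against day 1 batches 1 and 2 alone, and fbxb-79 ranged from -0.999 to 0.25 with 1 library left out; the cause was not tested. Depth limits mainly the day 1 level of members with under 10 reads.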
